A study of Mus musculus with 2 samples.

Results

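The genes described here encode subunits of the BAF and PBAF chromatin-remodelling complexes other than the BAF60 subunits, together with the catalytic subunits of the other ATP-dependent remodellers. They were chosen by gene symbol from knowledge of the complexes, and all 39 were found among the 28692 genes of the count tables. By role they are 6 catalytic and core BAF subunits, 13 accessory BAF subunits, 4 subunits specific to or typical of PBAF, 2 ISWI ATPases, 8 CHD proteins, 3 ATPases of the INO80 family and 3 other SNF2 ATPases.

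The islets came from flox/flox mice and from mice called BcBKO, an ablation in beta cells that the series ties to Pdx1-cre. The Pdx1 promoter that drives this recombinase is known to be active in pancreatic precursors as well as in mature beta cells, so that recombination need not be limited to the latter. The sample labels name neither the ablated gene nor the floxed exons, and they state no age, sex or strain. Each group was 1 droplet library of single islet cells pooled from at least 3 mice and counted as unique molecular identifiers (UMIs, one per captured RNA molecule) at the 3′ ends of RNAs. With 1 library per group there is no replicate, no test between the groups is possible, and every interval below is a 95% interval for counting error only.

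Chromatin remodellers use ATP to slide, evict or exchange nucleosomes. BAF and PBAF share an ATPase and a core and differ in their accessory subunits, and most positions in the complex can be filled by one of several paralogues, so that cell types assemble different versions. In neurons, Actl6b, Dpf1, Dpf3 and Ss18l1 are known to take the places that Actl6a, Phf10 or Dpf2, and Ss18 hold in dividing precursors. ISWI ATPases space nucleosomes, CHD proteins read histone marks or act within complexes such as NuRD, and the INO80 family acts on the histone variant H2A.Z.

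Cell classes were set by hormone shares and marker UMIs, none of them remodeller genes. There were 2750 beta, 377 alpha, 242 delta, 1178 endothelial, 223 mural (the muscle-like cells around vessels) and 422 macrophage barcodes in the flox/flox library, and 3058, 634, 308, 996, 163 and 331 in the library labelled BcBKO. The beta classes had a median of 38461.5 and 33171.5 UMIs per barcode and the others between 3611 and 13884. Levels are UMIs of a gene per 1000000 UMIs of its class (CPM), leaving out 8 hormone genes and 13 mitochondrial genes, because the insulin genes alone took 64.3% and 62.0% of the UMIs of beta cells and 1.97% to 5.61% elsewhere. A 3′ count gives 1 tag per molecule, so levels were not divided by gene length. Markers that the rules did not use fitted the classes: 6 beta markers summed to 4383 and 3652 CPM in beta cells and to 126 to 299 CPM in the other 5 classes, and 5 endothelial markers to 13405 and 14146 CPM in endothelial cells. The 4 alpha markers summed to 49676 and 44852 CPM in alpha cells but also to 4308 and 4750 CPM in beta cells. The 2 delta markers summed to 9438 and 9687 CPM in delta cells but also to 1443 and 1458 CPM in alpha cells. Mural cells also held 669 and 707 CPM of the endothelial markers. Barcodes that met 2 class rules were left out, among them 569 and 498 that met both the endothelial and the mural rule, with a median of 11648 and 9533 UMIs. Where they were kept as an alternative below, the mural class had 794 and 665 barcodes in place of 223 and 163. Most barcodes of that larger set thus also met the endothelial rule. Acinar markers, a sign of RNA from digestive enzyme cells, summed to 426 CPM in flox/flox beta cells and to 65.0 CPM in those of the other library, and their part in the differences below was not tested. The libraries had 23 barcodes in common. Smarcd3, which encodes the BAF60C subunit named in the series title, had 45 UMIs in beta cells of flox/flox and 71 in those labelled BcBKO (1.35 and 2.09 CPM, ratio 1.55, interval 1.05 to 2.31). It was thus not lower there. A tag at the 3′ end does not check a deletion elsewhere in a gene, and the library is therefore named by its label below.

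The promoters of 2 pairs of paralogues are shown because their members had the widest spread between cell classes within a pair. Actl6b and Actl6a encode alternative actin-like subunits of BAF, and Smarca1 and Smarca5 encode the alternative ISWI ATPases. The windows run 5′ to 3′ from 250 bases before to 50 bases after the start site and are taken from RefSeq on GRCm38.p6: chr5:137553296-137553595 (plus strand) for Actl6b, chr3:32708296-32708595 (plus) for Actl6a, chrX:47892564-47892863 (minus) for Smarca1 and chr8:80739410-80739709 (minus) for Smarca5. Capitals mark matches to the letters searched on both strands, which were CAGCACC and GGACAG, the left and right parts of the site of REST (a repressor of neuronal genes outside neurons), and CAGATG, an E-box of basic helix-loop-helix factors.
Actl6b: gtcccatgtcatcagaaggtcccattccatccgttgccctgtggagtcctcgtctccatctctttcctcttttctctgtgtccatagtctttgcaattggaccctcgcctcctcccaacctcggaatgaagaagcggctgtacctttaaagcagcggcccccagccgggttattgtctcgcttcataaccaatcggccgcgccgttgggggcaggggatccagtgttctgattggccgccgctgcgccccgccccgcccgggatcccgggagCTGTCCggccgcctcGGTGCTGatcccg
Actl6a: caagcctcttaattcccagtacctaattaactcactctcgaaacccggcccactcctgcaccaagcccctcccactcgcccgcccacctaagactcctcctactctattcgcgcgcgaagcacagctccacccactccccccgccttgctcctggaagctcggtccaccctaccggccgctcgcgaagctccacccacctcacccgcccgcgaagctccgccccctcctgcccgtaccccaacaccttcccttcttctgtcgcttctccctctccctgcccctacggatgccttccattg
Smarca1: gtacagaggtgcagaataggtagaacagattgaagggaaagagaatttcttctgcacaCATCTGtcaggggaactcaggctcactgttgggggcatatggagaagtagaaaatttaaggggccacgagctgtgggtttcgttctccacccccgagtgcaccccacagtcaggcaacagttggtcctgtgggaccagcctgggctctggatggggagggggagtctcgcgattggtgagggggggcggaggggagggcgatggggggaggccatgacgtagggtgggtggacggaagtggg
Smarca5: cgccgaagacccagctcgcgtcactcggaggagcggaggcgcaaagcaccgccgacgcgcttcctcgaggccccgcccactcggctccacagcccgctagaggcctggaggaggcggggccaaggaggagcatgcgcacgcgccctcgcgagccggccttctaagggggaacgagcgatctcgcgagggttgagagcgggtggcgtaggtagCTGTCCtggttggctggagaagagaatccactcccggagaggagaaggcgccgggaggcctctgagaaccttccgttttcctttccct

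The Actl6b window held both parts of the REST site on the minus strand, 9 bases apart and 23 to 44 bases after the start site. Both parts in this order within 12 bases were found in 37 of 32851 windows of the same length (0.113%) and, among the 31 remodeller genes with a window, in that of Actl6b alone. The letters alone were common, with CAGCACC in 7.14%, GGACAG in 22.2% and CAGATG in 17.2% of all windows. The Smarca5 window held GGACAG once, the Smarca1 window held CAGATG once, and the Actl6a window held none of the 3. CpG dinucleotides numbered 23 for Actl6b, 21 for Actl6a, 9 for Smarca1 and 32 for Smarca5, against a median of 31 in the windows of the 31 genes and 7 in all windows. The matches describe letters and say nothing about binding.

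Summed over all 39 genes, remodeller RNA was 2634 and 2638 CPM in beta cells, 2847 and 2942 in alpha cells, 3666 and 3705 in delta cells, 2558 and 2594 in endothelial cells, 2633 and 2600 in mural cells and 1582 and 1596 in macrophages (flox/flox first here and below). Delta cells were thus highest and macrophages lowest in both libraries. The class with the highest level of a gene was the same in both libraries for 26 of the 39 genes, and it was delta for 10 of them, beta for 6, endothelial for 5, mural for 4 and macrophage for 1. On the mean of both libraries 29 genes were lowest in macrophages. The same counts were not made over all genes. The median log2 ratio of macrophages over beta cells was −0.84 for the 33 remodeller genes compared and −1.11 for all genes, so low levels there were not particular to remodellers. Levels between classes depend on the total they are divided by. With all UMIs as the total, the median log2 ratio over beta of all genes moved from −0.24 to 0.80 in alpha cells, from 0.01 to 1.19 in delta cells, from −0.36 to 1.56 in endothelial cells, from −0.27 to 1.56 in mural cells and from −1.11 to 1.02 in macrophages. Shares within a paralogue family do not depend on the total and are given beside the levels for that reason.

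**Figure D1:**
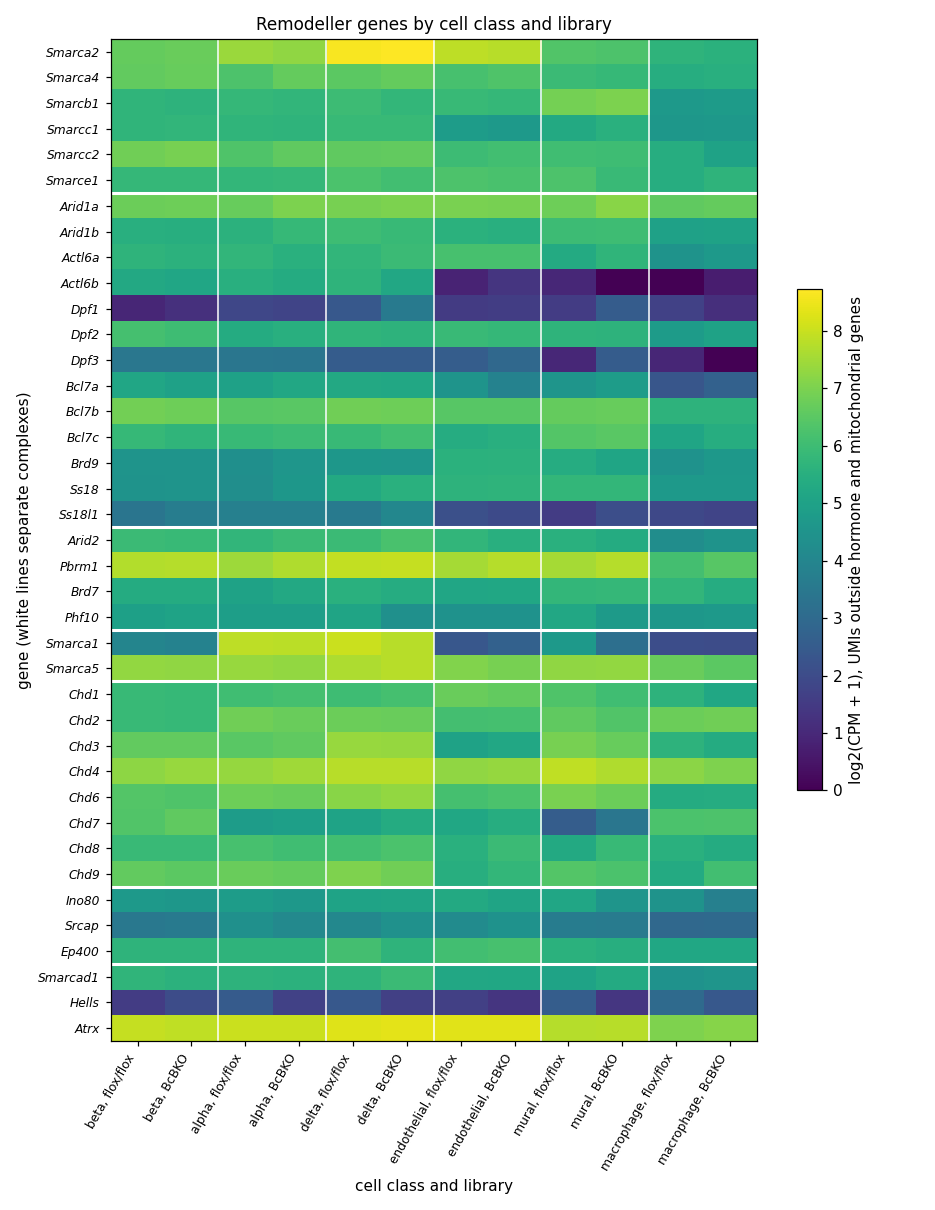
Level of each of the 39 genes (rows, grouped by complex) in 6 cell classes of the flox/flox library and the library labelled BcBKO (columns), as log2(CPM + 1). The 2 columns of a class resemble each other; the dark cells of Actl6b lie in the endothelial, mural and macrophage columns and the bright cells of Smarca1 in the alpha and delta columns.

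In each other class the genes were set against beta cells and counted where the log2 ratio of CPM plus 1 was at or beyond 1 (2-fold) the same way in both libraries, among genes at 20 CPM or more. In alpha cells 1 of 34 genes was higher (Smarca1) and 1 lower (Chd7), where 14.1% of all genes passed, 3.92% higher and 10.2% lower. Delta cells had 2 of 34 higher (Smarca1 and Smarca2) and 1 lower (Chd7), against 12.8% of all genes, 6.39% higher and 6.43% lower. Endothelial cells had 3 of 33 higher (Smarca2, Brd9 and Ss18) and 3 lower (Actl6b, Chd3 and Chd7), against 46.4%, 18.3% higher and 28.1% lower. Mural cells had 2 of 33 higher (Smarcb1 and Ss18) and 2 lower (Actl6b and Chd7), against 37.6%, 15.9% higher and 21.7% lower. Macrophages had 0 of 33 higher and 9 lower, against 62.1%, 12.9% higher and 49.1% lower. The share of remodeller genes past 2-fold was below that of all genes in each of these 5 comparisons. The 5 genes Dpf1, Dpf3, Ss18l1, Srcap and Hells were under the minimum level in all 5, and Smarca1 in the last 3. With all UMIs as the total the genes higher and lower were 13 and 0 in alpha cells, 29 and 0 in delta cells, 25 and 0 in endothelial cells, 27 and 1 in mural cells and 11 and 0 in macrophages, so the counts across classes moved with the choice of total. The median of all genes rose in each class with that total, as given above. The share of all genes past 2-fold under it is not given here, so these counts are no result about remodellers.

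**Figure D2:**
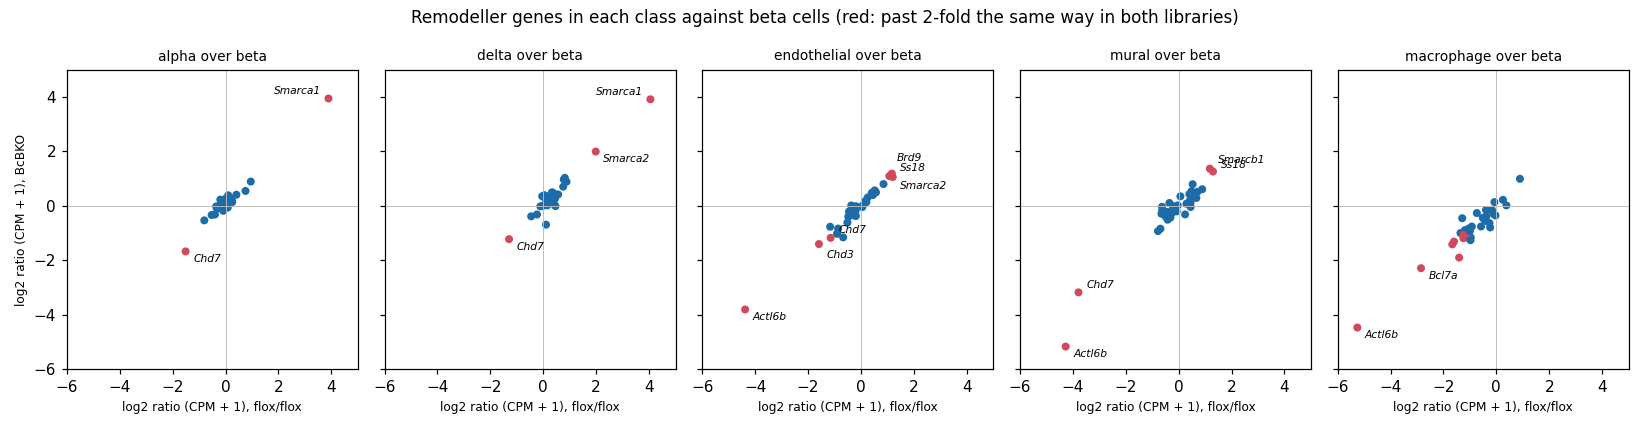
Log2 ratio (CPM + 1) of each gene in 5 cell classes over beta cells, in the flox/flox library (x) and the library labelled BcBKO (y), 1 point per gene at 20 CPM or more; red points passed 2-fold the same way in both libraries. Smarca1 stands at 3.89 and 3.94 in alpha cells, Actl6b lies at −3.80 or below in the endothelial, mural and macrophage panels, and only 2 of the 9 red genes of macrophages are named.

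Among the catalytic subunits of BAF, Smarca2 (BRM; chr19:26605050-26778322, plus strand) followed the cell class and Smarca4 (BRG1) varied less. Smarca2 was 100.01 and 105 CPM in beta cells, 169 and 154 in alpha cells, 399 and 422 in delta cells, 231 and 220 in endothelial cells, 80.3 and 77.7 in mural cells and 50.6 and 46.6 in macrophages. The mural value rests on the barcodes chosen: with those that met 2 class rules kept it was 209 and 210.5 CPM, above beta cells and not below them. Most barcodes of that larger set also met the endothelial rule, and its Smarca2 UMIs numbered 1597 and 1145 in place of 82 and 48. Delta cells were the highest class in both libraries, at 3.99 times the beta level (3.66 to 4.33) and 4.01 times (3.71 to 4.34). Endothelial cells followed at 2.31 times (2.17 to 2.46) and 2.09 times (1.95 to 2.25). The class order of Smarca4 began with beta cells at 98.4 and 102 CPM and ended with macrophages at 42.1 and 44.7 CPM. Smarca2 therefore made up 50.4% and 50.8% of the UMIs of the pair in beta cells, 68.8% (65.4 to 72.1) and 60.5% (57.6 to 63.4) in alpha cells, 81.4% and 80.7% in delta cells and 76.3% and 73.7% in endothelial cells. With each barcode thinned to 2000 UMIs outside hormone and mitochondrial genes, a Smarca2 UMI was seen in 52.4% and 56.5% of delta cells and in 18.1% and 19.3% of beta cells. Without thinning the shares were 86.0% and 84.7% in delta cells and 65.7% and 63.9% in beta cells, at medians of 6357.5 and 5423.5 such UMIs in delta cells against 10638.5 and 9665 in beta cells, so the deeper class had the lower share.

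The other core subunits differed less between endocrine classes. Smarcc2 (BAF170), a scaffold subunit, was 113 and 121 CPM in beta cells and 78.4 to 97.0 CPM in alpha and delta cells, and it led its paralogue Smarcc1 (BAF155) in every class, with 68.7% and 69.5% of the pair in beta cells. Smarcb1 (BAF47), a core subunit that contacts the nucleosome, was 118 and 126 CPM in mural cells against 51.8 and 48.4 CPM in beta cells, a ratio of 2.29 (1.89 to 2.75) and 2.61 (2.05 to 3.28). The mean log2 ratio fell under the 2-fold threshold, from 1.27 to 0.70, when barcodes that met 2 class rules were kept. Smarce1 (BAF57) ranged from 42.1 to 76.5 CPM over the 12 values. In macrophages Smarca4, Smarcc1 and Smarcc2 were past 2-fold lower than in beta cells, with ratios of 0.428 and 0.438, 0.451 and 0.456, and 0.371 and 0.262. With all UMIs as the total the mean log2 ratio of Smarca4 and Smarcc1 turned to 0.46 and 0.51, while Smarcc2 was higher in macrophages of flox/flox and lower in those labelled BcBKO. Smarca4 and Smarcc1 no longer passed with barcodes that met 2 class rules kept.

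Actl6b (BAF53B; chr5:137553517-137569582, plus strand) was the member whose RNA was seen in endocrine cells and hardly elsewhere. It was 37.2 and 34.9 CPM in beta cells (1241 and 1183 UMIs), 44.2 and 40.3 in alpha cells and 49.8 and 36.2 in delta cells. Endothelial cells held 5 and 7 UMIs (0.835 and 1.57 CPM), mural cells 1 and 0, and macrophages 0 and 1. Beta RNA carried in the droplets, estimated from the insulin UMIs of the endothelial, mural and macrophage classes, would give 7.0 and 5.74 Actl6b UMIs there, against 6 and 8 observed. The beta level was 44.5 times the endothelial level (19.0 to 137) in flox/flox and 22.2 times (10.8 to 55.4) in the library labelled BcBKO. Against the macrophages of flox/flox, at 0, it was at least 27.7-fold higher, and against the mural cells labelled BcBKO, also at 0, at least 7.18-fold higher, both taken against 3 counts in that library. With barcodes that met 2 class rules kept, macrophages held 11 and 7 Actl6b UMIs (4.03 and 3.56 CPM), and the mean log2 ratio over beta cells was −2.95 in place of −4.86. Its paralogue Actl6a (BAF53A) was found in every class, from 21.5 to 72.5 CPM. Actl6b thus held 42.6% and 42.0% of the pair in beta cells, 45.4% and 46.8% in alpha cells and 48.5% (40.8 to 56.3) and 37.4% (30.3 to 44.8) in delta cells, and 1.14% and 2.14% in endothelial cells. At 2000 UMIs per barcode, 7.10% and 7.40% of beta cells and 0.267% and 0.220% of endothelial cells had an Actl6b UMI; unthinned, the shares were 35.5% and 31.5% against 0.424% and 0.703%, at endothelial medians of 3882 and 3546 UMIs.

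Among the accessory subunits that Actl6b accompanies in neurons (grouped after their values were seen), Ss18l1 (CREST) showed the same split at lower levels. It was 9.41 and 11.9 CPM in beta cells, 12.96 and 13.0 in alpha cells and 10.9 and 15.4 in delta cells, above the 1.96 to 3.34 CPM of the other 3 classes. It stayed under the 20 CPM minimum of the class comparisons. Its share of the pair with Ss18 was 22.2% to 40.6% in endocrine cells and 3.51% to 9.52% elsewhere. Dpf3, a PHD finger subunit, was 9.92 and 10.1 CPM in beta cells and 9.63 and 9.41 CPM in alpha cells, but its delta values of 4.86 and 4.79 CPM lay within the 0 to 6.72 CPM of the non-endocrine classes. Dpf1 was at 0.899 and 1.3 CPM in beta cells and reached its highest value, 11.2 CPM, in delta cells labelled BcBKO, against 4.25 CPM in those of flox/flox. On this scale the endocrine values of Actl6b and Ss18l1 lay above the others and those of Dpf1 did not. Ss18l1 no longer stood apart with all UMIs as the total, at 2.61 CPM in beta cells and 3.07 CPM in endothelial cells of flox/flox, and its share also moves with Ss18, which was higher in endothelial and mural cells.

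**Figure D3:**
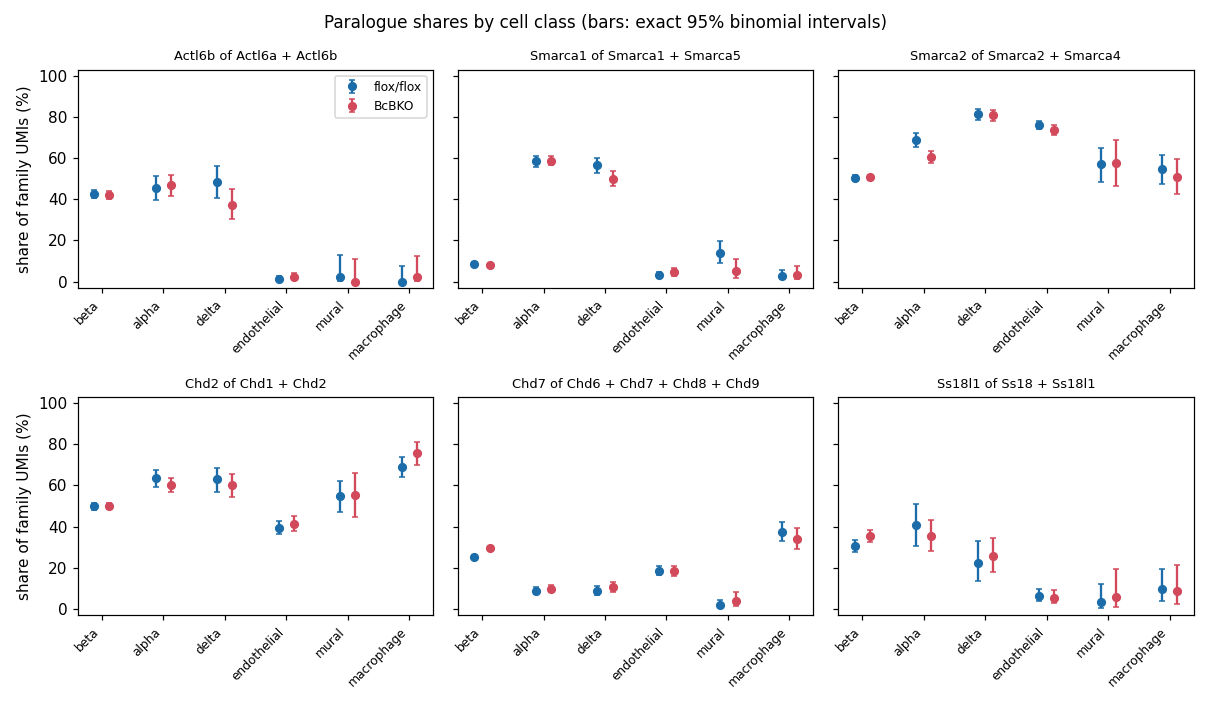
Share (%) of UMIs that 1 member holds within its paralogue family, by cell class, for the flox/flox library (blue) and the library labelled BcBKO (red), with exact 95% binomial intervals. Actl6b and Ss18l1 are near the floor in endothelial, mural and macrophage cells, Smarca1 lies at 50.1% to 58.8% in alpha and delta cells against 8.10% and 8.51% in beta cells, and Chd7 lies at 25.1% and 29.3% in beta cells against 8.69% to 10.5% in alpha and delta cells.

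Of the remaining accessory subunits, Ss18 and Brd9, which marks the non-canonical form of BAF, were higher in endothelial and mural cells than in beta and alpha cells. In delta cells Ss18 was 38.3 and 45.3 CPM, above the 25.5 CPM of macrophages in both libraries, and Brd9 was at a like level in macrophages (20.6 and 24.2 CPM) and delta cells (23.7 and 22.9 CPM). Ss18 was 49.1 and 50.6 CPM in endothelial and 53.8 and 53.4 CPM in mural cells against 21.3 and 21.7 CPM in beta cells. Brd9 was 46.8 and 47.9 CPM in endothelial cells against 21.7 and 21.9 CPM in beta cells, a ratio of 2.15 (1.87 to 2.47) and 2.19 (1.87 to 2.55). Brd9 held more UMIs than Brd7, its paralogue in PBAF, in endothelial cells, with 57.1% of the pair in both libraries, against 28.0% to 43.3% in the other 5 classes. Bcl7a, a nucleosome-binding subunit, was 35.2 and 31.2 CPM in beta cells and 4.03 and 5.59 CPM in macrophages. Bcl7b led Bcl7a and Bcl7c in every class, Arid1a led Arid1b and Arid2, and Dpf2, at 26.9 to 70.4 CPM, led the PHD finger subunits. Arid1a, the DNA-binding subunit of canonical BAF, was the most even of these leaders, at 94.97 to 142 CPM. Arid1b and Bcl7c spanned 30.9 to 63.2 and 33.6 to 89.0 CPM.

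For PBAF, Pbrm1, the polybromo subunit, was the most abundant, at 211 and 217 CPM in beta cells, 241 and 247 in delta cells and 69.0 and 87.0 in macrophages. Arid2 was at a lower level, with 60.4 and 58.0 CPM in beta cells and 18.4 and 21.1 CPM in macrophages, and its order of classes differed from that of Pbrm1. Both were past 2-fold lower in macrophages than in beta cells, and with all UMIs as the total their mean log2 ratios turned to 0.089 for Arid2 and 0.21 for Pbrm1. Brd7 and Phf10 ranged from 31.9 to 55.0 and from 19.7 to 36.2 CPM, with no class past 2-fold from beta cells.

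Endocrine and other classes were also compared by whether all 6 endocrine values lay above, or all below, the 6 values of endothelial, mural and macrophage cells. Of 34 genes at 20 CPM or more, 7 lay above (Smarcc1, Smarcc2, Arid2, Actl6b, Bcl7a, Smarcad1 and Chd9) and 0 below, where 30.3% of all genes were apart in this way, 24.2% above and 6.12% below, so the count above was close to that of all genes. The lowest endocrine value was 22.2 times the highest other value for Actl6b and 1.01 to 1.22 times for the other 6. With all UMIs as the total 1 gene, Actl6b, lay above and 3 below, and with TMM scaling 3 lay above (Smarcc1, Actl6b and Bcl7a) and 4 below.

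The ISWI ATPase Smarca1 (SNF2L; chrX:47809368-47892974, minus strand) separated alpha and delta cells from beta cells. It was 233 and 225 CPM in alpha cells (700 and 1002 UMIs) and 260.0 and 220.0 CPM in delta cells (428 and 413 UMIs). Beta cells had 14.7 and 13.7 CPM, endothelial cells 4.18 and 5.60 and macrophages 3.14 and 3.11. The alpha level was 15.8 times the beta level (14.0 to 17.7) in flox/flox and 16.4 times (14.7 to 18.4) in the library labelled BcBKO, and the delta level 17.6 times (15.5 to 20.1) and 16.1 times (14.1 to 18.4). The mean log2 ratio of alpha over beta cells was 3.92, and 3.87 to 4.71 under the alternatives run. Smarca5 (SNF2H), the ISWI ATPase found in most cells, was 159 and 155 CPM in beta cells, 165 and 157 in alpha cells and 200 and 219 in delta cells. Smarca1 held 58.4% and 58.8% of the pair in alpha cells and 56.5% (52.8 to 60.03) and 50.1% (46.6 to 53.5) in delta cells, and 8.51% and 8.10% in beta cells. At 2000 UMIs per barcode a Smarca1 UMI was seen in 31.0% and 36.1% of alpha cells, 34.6% and 37.8% of delta cells, 2.91% and 2.36% of beta cells and 0.267% and 0.550% of endothelial cells. Unthinned, the shares were 66.8% and 67.7% in alpha cells, 14.9% and 13.0% in beta cells and 1.10% and 1.00% in endothelial cells.

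RNA of other cells carried in the droplets was estimated for Smarca1 in beta barcodes. Scaled by the Gcg and Sst UMIs of beta barcodes, alpha and delta RNA would give 28.8 of the 492 Smarca1 UMIs in beta cells of flox/flox (5.85%) and 58.5 of 464 in those labelled BcBKO (12.6%). In beta barcodes with Gcg, Sst and Ppy each under 0.2% of UMIs, the level was still 14.3 and 12.9 CPM. Within beta cells, Smarca1 was also the one gene past the threshold set for a difference by insulin share. Beta cells were split at the median insulin share of their library (64.3% and 62.4% of UMIs) and genes at 10 CPM or more counted where the log2 ratio was at or beyond 0.25 the same way in both libraries. Smarca1 was lower in the upper group, at 12.2 against 17.3 CPM (ratio 0.704, 0.586 to 0.845) and 11.1 against 16.2 CPM (0.681, 0.563 to 0.824), the single gene past this fold of 36, where 5.31% of all genes passed, 1.3% higher and 4.01% lower. The median of the mean log2 ratios was −0.09 for the 36 genes and −0.02 for all genes. Chd4 was lower at ratios of 0.825 (0.780 to 0.873) and 0.865 (0.820 to 0.912), past the threshold in flox/flox only. On the mean of both libraries Actl6b had the highest ratio, at 38.8 against 35.6 CPM and 37.1 against 32.8 CPM (1.09, 0.973 to 1.22, and 1.13, 1.01 to 1.27). The upper groups were deeper, with medians of 42739 and 37147 UMIs against 34858 and 29548, and the part of depth was not tested beyond the range from 20000 to 50000 UMIs, where 1 gene was again lower. Between the upper and the lower 25% of the insulin share 3 genes were lower, and with all UMIs as the total 25, where the insulin genes enter the total and the median of all genes moved from −0.02 to −0.32.

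Among the CHD proteins, Chd7 (chr4:8690406-8867659, plus strand), a remodeller that acts at enhancers, was the one that marked beta cells among the endocrine classes. It was 80.4 and 95.8 CPM in beta cells, 27.6 and 29.4 in alpha cells, 32.2 and 40.5 in delta cells, 35.7 and 41.9 in endothelial cells, 4.89 and 9.71 in mural cells and 75.3 and 77.0 in macrophages. Beta cells and macrophages thus stood above the other 4 classes in both libraries. The beta level was 2.92 times the alpha level (2.34 to 3.67) and 3.26 times (2.74 to 3.92), and 2.50 times (1.90 to 3.34) and 2.37 times (1.88 to 3.01) the delta level. Against mural cells, with 5 and 6 Chd7 UMIs, it was 16.4 times (7.03 to 50.6) and 9.86 times (4.53 to 26.9), and the mean log2 ratio there went from −3.48 to −1.59 when barcodes that met 2 class rules were kept. With all UMIs as the total the mean log2 ratio over beta was −0.59 in alpha cells and −0.11 in delta cells, under 2-fold, and turned to 0.49 in endothelial cells. Within the family of Chd6, Chd7, Chd8 and Chd9, Chd7 held 25.1% and 29.3% in beta cells, 37.5% and 34.2% in macrophages, 8.78% and 9.73% in alpha cells, 8.69% and 10.5% in delta cells and 1.96% and 3.87% in mural cells. Chd6 led this family in alpha, delta, endothelial and mural cells and Chd7 in macrophages. In beta cells Chd9 led in flox/flox (97.9 CPM against 80.4 for Chd7) and Chd7 in the library labelled BcBKO (95.8 against 91.4).

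Chd1, which is known to act with transcription elongation, and its paralogue Chd2 changed places between classes. Chd2 was 57.7 and 56.3 CPM in beta cells, 113 and 105 in alpha cells, 107 and 105 in delta cells and 108 and 113 in macrophages, while Chd1 was 58.1 and 56.4 in beta cells and 106 and 99.0 in endothelial cells. Chd2 held 49.8% (48.2 to 51.4) and 49.96% (48.4 to 51.6) of the pair in beta cells, so that neither led beyond the interval, 63.5% and 60.2% in alpha cells, 69.1% and 75.8% in macrophages and 39.4% and 41.3% in endothelial cells. Of the NuRD ATPases, Chd4 led in every class at 129 to 237 CPM. Chd3 was 166 and 160 CPM in delta cells, 98.0 and 98.1 in beta cells and 31.9 and 36.5 in endothelial cells, where its ratio over beta was 0.326 (0.280 to 0.377) and 0.372 (0.316 to 0.436). That direction turned with all UMIs as the total (mean log2 ratio 0.16), but the Chd3 share of the pair was also lowest in endothelial cells, at 17.1% and 18.6% against 23.8% to 43.0% in the other classes. Chd3 was 50.6 and 49.7 CPM in endothelial cells with barcodes that met 2 class rules kept, and no longer passed 2-fold (mean log2 ratio −0.95). Chd8 spanned 38.2 to 76.2 CPM.

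In the INO80 family Ep400 led in every class, at 35.4 to 71.2 CPM, followed by Ino80 at 13.0 to 38.3 and Srcap at 6.72 to 20.6 CPM. Another listed gene of the same strand lies over the 3′ end of Srcap, so its UMIs are uncertain. None of the 3 passed 2-fold in a class comparison, and Srcap was under the minimum there. Atrx, which works with the histone variant H3.3, was the most abundant of the 39 genes in beta cells, at 246 and 236 CPM, and reached 325 and 321 CPM in endothelial cells. Smarcad1 was 51.3 and 47.7 CPM in beta cells and 21.1 and 22.4 CPM in macrophages, a direction that turned with all UMIs, and it no longer passed with barcodes that met 2 class rules kept. Hells, which supports DNA methylation and is known from dividing cells, was at 1.57 to 7.17 CPM in all 12 values. In the 2 and 6 beta barcodes with at least 3 UMIs of the proliferation genes Mki67 and Top2a it had 5 and 7 UMIs, or 93.6 CPM (30.4 to 219) and 64.0 CPM (25.7 to 132), against 1.77 and 2.93 CPM in the other beta cells. Such small sets of barcodes allow no more than a description.

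Between the libraries, remodeller genes in beta cells differed little. Of 37 genes at 10 CPM or more in either library, 2 were past a log2 ratio of 0.25 (1.19-fold), both higher in the library labelled BcBKO, and 0 were lower. Among all genes 9.03% passed either way, 4.73% higher and 4.29% lower. The median log2 ratio was −0.01 for the remodeller genes and −0.01 for all genes. Ss18l1 went from 9.41 CPM (314 UMIs) to 11.9 CPM (404 UMIs), a ratio of 1.27 (1.09 to 1.47), and Chd7 from 80.4 to 95.8 CPM, a ratio of 1.19 (1.13 to 1.25) with a log2 ratio of 0.25, on the threshold itself. Ss18l1 reached 10 CPM only in the library labelled BcBKO, so it could be counted only as higher. Chd7 dropped under the threshold with TMM scaling (0.239), without doublets (0.235), with at least 40% insulin (0.245), as a mean over cells (0.244) and with a pseudocount of 5 CPM (0.24), and Ss18l1 with that pseudocount (0.23). Bcl7a had the lowest log2 ratio, −0.17, at 35.2 and 31.2 CPM (ratio 0.886, 0.814 to 0.963). Next below Chd7 came Chd4, at 149 and 165 CPM, with a log2 ratio of 0.15. Dpf1 (30 and 44 UMIs) and Hells (64 and 106 UMIs) lay under the minimum level. By role, 0 of 6 catalytic and core subunits, 1 of 12 accessory subunits, 0 of 4 PBAF subunits, 0 of 2 ISWI ATPases, 1 of 8 CHD proteins, 0 of 3 INO80 ATPases and 0 of 2 other SNF2 ATPases were past the threshold. The ATPases Smarca2 and Smarca4 stood at 100.01 and 105 and at 98.4 and 102 CPM.

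**Figure D4:**
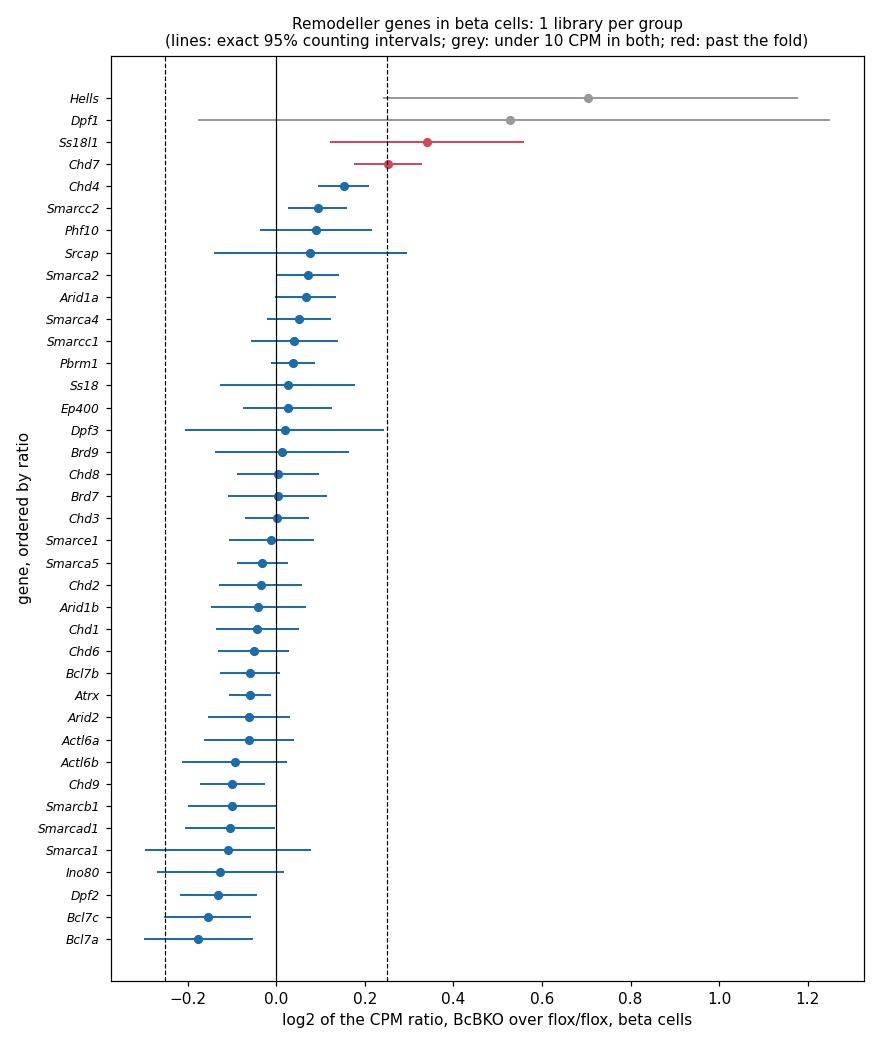
Log2 of the CPM ratio of the library labelled BcBKO over flox/flox in beta cells for each of the 39 genes (without a pseudocount), with exact 95% counting intervals; dashed lines mark 0.25 either way and grey genes were under 10 CPM in both libraries. The red genes Ss18l1 and Chd7 lie past the threshold and the other genes at 10 CPM or more between the dashed lines.

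In the other classes the threshold was a log2 ratio of 0.5 (1.41-fold) at 20 CPM or more in either library. A gene that reached 20 CPM in 1 library only could be counted in 1 direction only. Among the genes named below, this held for Phf10 and Srcap in delta cells and Bcl7a in endothelial cells. It also held for Smarca1 in mural cells and Ino80 in macrophages. In alpha cells 0 of 34 genes passed, where 3.53% of all genes did, 2.3% higher and 1.23% lower. There Smarca4 had the highest log2 ratio, 0.39, at 76.7 and 101 CPM (ratio 1.31, 1.12 to 1.54), and Actl6a the lowest, −0.21. In delta cells 1 of 35 was lower and 0 higher, against 8.17% of all genes, 4.1% lower and 4.07% higher. It was Phf10, a PBAF subunit, at 32.8 and 19.7 CPM (0.601, 0.384 to 0.930), and Srcap was highest, at a ratio of 1.28 (0.758 to 2.20). In endothelial cells 1 of 33 was lower and 0 higher, against 3.38%, 1.98% lower and 1.4% higher. It was Bcl7a, at 21.7 and 13.4 CPM (0.619, 0.448 to 0.847), while Chd8 was highest at a ratio of 1.31 (1.11 to 1.56). With barcodes that met 2 rules kept, Bcl7a was 20.3 and 13.7 CPM in endothelial cells (0.676, 0.543 to 0.838), and with all UMIs as the total 0 genes passed there.

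Mural cells had 1 of 32 genes higher and 2 lower, against 23.9% of all genes, 11.4% higher and 12.6% lower, on 163 barcodes in the smaller library. Smarca1 had 25 and 5 UMIs (24.5 and 8.09 CPM, ratio 0.331, 0.0989 to 0.880), Chd8 38.2 and 58.3 CPM (1.53, 0.943 to 2.47) and Ino80 35.2 and 22.7 CPM (0.643, 0.320 to 1.22), the last 2 with intervals that include 1. With barcodes that met 2 rules kept, 0 genes passed and the log2 ratio of Smarca1 was 0.00. Markers of other cells differed in the same comparison: 4 alpha markers summed to 1313 and 358 CPM in mural cells, 5 acinar markers to 1176 and 210 CPM and 3 duct markers to 123 and 639 CPM, and their part in these differences was not tested. In macrophages 1 of 31 was higher and 1 lower, against 11.6%, 4.07% higher and 7.56% lower. They were Chd9, at 39.4 and 66.5 CPM (1.69, 1.26 to 2.26), and Ino80, at 21.5 and 13.0 CPM with an interval that includes 1 (0.607, 0.345 to 1.03). With barcodes that met 2 rules kept, Chd9 no longer passed (ratio 1.36, 1.07 to 1.73) and Ino80 did. Ino80 was thus lower in both mural cells and macrophages, on 14 and 21 UMIs in the library labelled BcBKO, each time with an interval that includes 1. The share of all genes that passed the same way in more than 1 class is not given here, so this overlap is a description only.

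Partner genes of the same complexes were compared between the libraries in beta cells in the same way, where 4.73% of all genes were higher and 4.29% lower. Of the listed BAF60 and other BAF genes, Smarcd1 (29.5 and 27.1 CPM), Smarcd2 (30.8 and 31.2 CPM) and Actb reached 10 CPM and 0 of 3 passed. Among 12 NuRD genes 1 was lower, the NuRD ATPase gene Chd5, known from neurons, at 27.2 and 20.1 CPM (ratio 0.738, 0.668 to 0.816), and 0 were higher. Rbbp7 and Mta1 had the highest log2 ratios of that list, 0.13 and 0.10, and Mbd2 followed Chd5 at −0.18. Among 26 partners of INO80, SRCAP and TIP60, 0 were higher and 3 lower, where 4.29% of all genes were lower and 9.03% passed either way. The 3 were Actr6 (25.8 and 21.3 CPM), Ruvbl1 (33.3 and 27.6 CPM) and Ruvbl2 (19.5 and 16.2 CPM), the last pair being ATPases that these complexes have in common. Actr6 and Ruvbl1 lay near the threshold, at log2 ratios of −0.27 and −0.26. Ino80e and Znhit1 were highest at 0.15 and 0.06. None of 7 ISWI partners passed (from −0.09 for Baz2b and −0.07 for Rsf1 to 0.11 for Baz2a and 0.15 for Pole3). The same held for 6 other SNF2 ATPases (from −0.16 for Hltf and −0.14 for Shprh to 0.03 for Ercc6 and 0.08 for Smarcal1) and for 5 Polycomb genes (from −0.11 for Ezh1 and Eed to 0.02 for Suz12 and 0.04 for Bmi1). The list medians lay between −0.09 and 0.02. Across classes, 0 of 7 ISWI partners passed 2-fold in alpha or in delta cells, where the ATPase Smarca1 was higher and 14.1% and 12.8% of all genes passed, and Chd5 was lower than in beta cells in alpha, endothelial, mural and macrophage cells.

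Insulin barcodes of low depth, which the beta rule leaves out, had a different makeup of remodeller RNA. There were 376 and 405 barcodes with at least 25% insulin UMIs and under 3000 UMIs, at a median of 1638.5 and 1768. Of 35 genes at 20 CPM or more in either set, 20 were past a log2 ratio of 0.5 higher than in beta cells in both libraries and 0 lower, where 59.0% of all genes passed, 32.3% higher and 26.7% lower. Dpf3 (9.92 and 10.1 CPM in beta cells) and Srcap (10.4 and 10.9 CPM) reached the minimum only in the low-UMI barcodes. They could therefore be counted only as higher, and both are among the 20. The median log2 ratio was 0.89 for the remodeller genes and 0.08 for all genes. Malat1, an RNA kept in the nucleus, was 112063 and 128385 CPM in these barcodes against 18648 and 18595 CPM in beta cells, and its part in the result was not tested.

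Genes of ATPases were the most frequent among those higher. All 3 INO80 family ATPases passed. Srcap, under 20 CPM in beta cells and so countable only as higher, was at 6.07 times (3.66 to 9.52) and 8.16 times (5.47 to 11.8) its beta level on 20 and 31 UMIs. Of the 8 CHD genes 7 passed, all but Chd1, with Chd6 at 3.62 and 3.14 times. Atrx was 630 and 605 CPM, or 2.56 times in each library (2.21 to 2.94 and 2.22 to 2.94), and Smarcad1 2.70 and 3.62 times. Of the accessory BAF subunits 5 of 11 passed, among them Bcl7a at 4.38 and 3.23 times and Brd9 at 4.49 and 1.97 times. Dpf3 passed on 7 UMIs in each library, with intervals that include 1 (0.886 to 4.63 and 0.800 to 4.18). The interval of Ss18 also included 1 in the library labelled BcBKO (0.915 to 2.97). In contrast 1 of 6 core subunits passed, Smarca2, at 170 and 187 CPM, while Smarca4 was 1.02 and 1.07 times its beta level. On the mean of both libraries Bcl7b was lowest, at 0.759 (0.504 to 1.10) and 0.672 (0.438 to 0.986). Arid2 and Phf10 passed among 4 PBAF subunits, Phf10 with intervals that include 1 (0.789 to 2.44 and 0.944 to 2.54), and Smarca5, the one ISWI gene compared, did not. Partner lists differed in the same barcodes, where 32.3% of all genes were higher and 26.7% lower. Of ISWI partners 5 of 7 were higher and 1 lower, and of other SNF2 ATPases 4 of 6 were higher and 0 lower. Partners of INO80, SRCAP and TIP60 had 7 of 24 higher and 4 lower, and NuRD genes 2 of 12 higher and 3 lower. Polycomb genes had 1 of 5 higher and 0 lower, and the BAF60 and other BAF genes 1 of 3 higher and 1 lower.

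**Figure D5:**
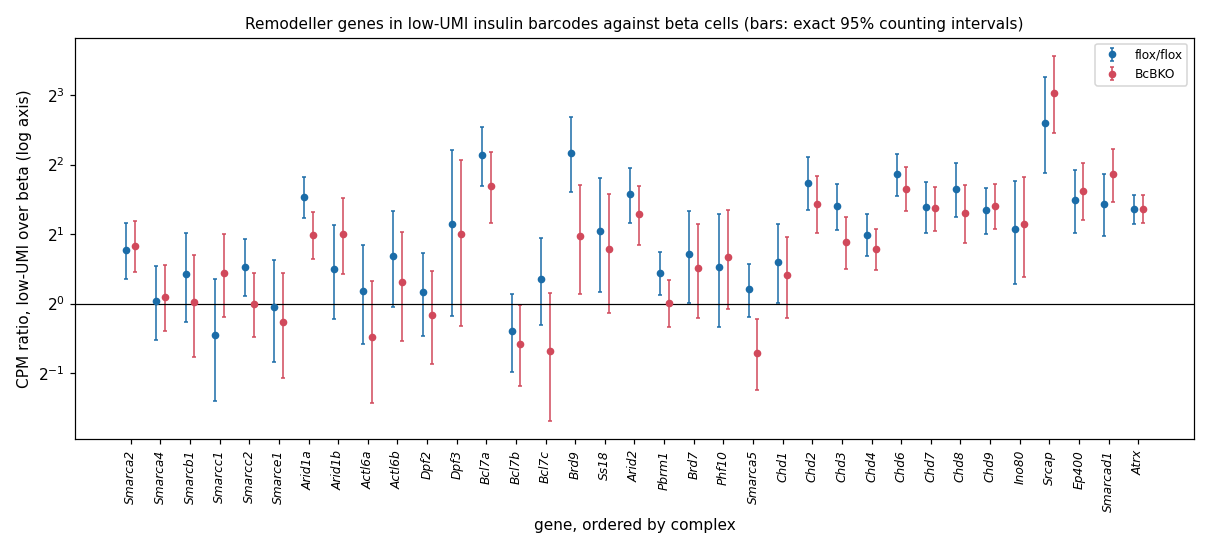
CPM in low-UMI insulin barcodes over CPM in beta cells (log axis) for the 35 genes compared, ordered by complex, in the flox/flox library (blue) and the library labelled BcBKO (red), with exact 95% counting intervals. The CHD genes, the INO80 family, Smarcad1 and Atrx lie above 1 in both libraries, while core BAF subunits such as Smarca4 (1.02 and 1.07) lie close to it.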

How the data were processed

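Single-cell RNA of mouse islets was measured in 2 droplet libraries, flox/flox and BcBKO, each pooled from at least 3 mice. The matrices hold raw UMI counts per gene and barcode as deposited. Per the submitters' processing notes Cell Ranger 3.1.0, Seurat 4.0.0 and mm10 were used, while the matrix headers name Cell Ranger 6.1.2, and which version made the counts is not settled. Of 28692 gene identifiers, 28339 were found in the GENCODE M21 annotation of GRCm38, which gave the gene coordinates. Sequences are from RefSeq.

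Barcodes with at least 500 genes, 1000 UMIs and at most 20% mitochondrial UMIs were kept (7568 of 9438 and 8504 of 10775). Beta cells had at least 25% insulin UMIs and 10000 UMIs with Gcg, Sst and Ppy each under 1%. With insulin under 15%, alpha cells had at least 10% Gcg, delta cells at least 5% Sst, endothelial cells 3 UMIs of Plvap and Cdh5, mural cells 5 of Rgs5 and Pdgfrb, and macrophages 5 of C1qa and C1qb. Scrublet at 8% expected doublets (scanpy 1.11.5) called 170 and 177 barcodes, which were kept and left out as an alternative. Counts were summed per class and library, scaled to CPM and compared as log2(CPM + 1), on a scale that understates changes of low genes. Intervals are exact Poisson, conditional binomial or Clopper-Pearson at 95%, and droplets of 1 library are no replicates. TMM factors came from edgeR 4.0.16 as an alternative, run under R 4.3.3. Sums and intervals were computed with pandas 2.3.3 and scipy 1.17.1 under Python 3.11.15, and numpy 2.4.6 held the arrays. On simulated counts the beta comparison of the libraries recovered 100% of genes changed 2.378-fold and called 0.133% of unchanged genes, over 9245 genes. The simulation held counting error only and a fold well past the threshold of 1.19-fold. It therefore checks the computation and gives no rate of false calls between 2 preparations.

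Full values are given for genes past a threshold, for the highest and lowest gene of a comparison and for families whose leading member differed between classes, and for partner lists the 2 highest and 2 lowest genes are named. The 39 genes, the lists, the rules and the thresholds were chosen with earlier results of these data known.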

Additional observations from a re-analysis of the deposited data

How the results depend on the processing

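No paired analysis was possible because each group is 1 library and no test was made. Of the genes compared between the libraries in beta cells, 2 were past the threshold. That number was 1 with all UMIs as the total (Ss18l1 fell under the minimum level), with TMM scaling, without doublets, with at least 40% insulin and as a mean over cells, 4 with no minimum level and 0 with a pseudocount of 5 CPM. In alpha cells it went from 0 to 1 with no minimum level or as a mean over cells. In delta cells it went from 1 to 3 with no minimum level, to 2 as a mean over cells and to 3 with barcodes that met 2 class rules kept, an alternative chosen after seeing the data, where Actl6b and Srcap joined Phf10. In endothelial cells it went from 1 to 0 with all UMIs or as a mean over cells. In mural cells it went from 3 to 9 with no minimum level and to 0 with barcodes that met 2 rules kept, where the log2 ratio of Smarca1 turned to 0.0045. In macrophages it went from 2 to 1 with all UMIs, to 6 with no minimum level and to 1, Ino80, with barcodes that met 2 rules kept.

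The counts in this section are given without the share of all genes under each alternative, so they describe the settings and are no result about remodellers. With all UMIs as the total, the genes higher and lower than in beta cells were 13 and 0 in alpha, 29 and 0 in delta, 25 and 0 in endothelial, 27 and 1 in mural cells and 11 and 0 in macrophages. Mean log2 ratios then turned to 0.16 for Chd3 and 0.49 for Chd7 in endothelial cells. In macrophages they turned to 0.46 for Smarca4, 0.51 for Smarcc1, 0.0015 for Smarcc2 (of opposite sign in the libraries), 0.089 for Arid2, 0.21 for Pbrm1, 0.44 for Bcl7b and 0.47 for Smarcad1. TMM scaling gave 5 genes higher in endothelial cells and 2 higher and 2 lower in macrophages. A minimum of 50 CPM gave 1 higher in endothelial and 1 lower in mural cells, and no minimum level 5 lower in endothelial cells. With barcodes that met 2 rules kept, 1 gene was higher in mural cells and 5 were lower in macrophages, without Smarca4, Smarcc1, Bcl7b and Smarcad1. Genes with all endocrine values above the others, 7 in the comparison reported, numbered 1 with all UMIs (3 below), 3 with TMM scaling (4 below) and 4 with a minimum of 50 CPM, but 8 with no minimum level and 10 with barcodes that met 2 rules kept. In the upper insulin group 25 genes were lower with all UMIs and 3 between the outer 25%. The cause of these shifts was not tested, beyond the part of the insulin genes in the total.

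Of the other values, 541 for single genes stayed within their counting interval and 36 moved without a change of sign. The number of molecules limits the mural class most, with 617752 UMIs outside hormone and mitochondrial genes in mural cells labelled BcBKO against 33917532 in beta cells. With 1 pooled library per group, the difference between genotypes and that between 2 preparations cannot be told apart, and none of the counts above carries a replicate error.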
